A study of Mus musculus with 2 samples.

Results

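Tle3 binding was mapped by chromatin immunoprecipitation and sequencing in bone marrow progenitors, and the 343 peaks of mouse chromosome 7 are described here, out of 5136 in the whole list. They were taken as every entry of the list on chromosome 7, in mm9 positions, the build named in the submitters' processing notes. The chromosome was selected on its number of peaks per protein-coding gene, the lowest of the 19 autosomes in this list, so that value is a description and carries no test. The cells came from the bone marrow of C57BL/6 mice, wild type and 8 to 10 weeks old, and were sorted as lineage-negative and cKit-positive. Some labels call them hematopoietic progenitors and others T cells, and a peak list holds no expression values against which either name could be checked. There was 1 library made with an anti-Tle3 antibody and 1 control library from the same kind of cells, named normal IgG in some labels and input in others. Without replicates no p-value is given, and every interval covers counting error only. The files hold no read counts, and the sequencing depth is unknown.

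Tle3 is a corepressor of the Groucho family. It has no DNA-binding domain of its own and reaches chromatin through partners, among them RUNX proteins and the TCF/LEF factors of Wnt signalling. Mouse chromosome 7 is rich in tandem arrays of genes used by sensory cells. Olfactory receptors (Olfr) detect odorants in neurons of the nose, and vomeronasal receptors of type 1 and type 2 (Vmn1r and Vmn2r) detect pheromones in the vomeronasal organ. Most of these receptors are known to be silent outside such neurons. The chromosome also carries the imprinted Prader-Willi and Angelman domain and the imprinted Peg3 domain. The question was whether its low number of peaks per gene arises where the receptor arrays lie.

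Chromosome 7 was poor in Tle3 peaks per gene but not per megabase. It held 2.30 peaks per Mb between its first and last peak, against a median of 2.15 over the other 18 autosomes, and 7 of those had more. It carried 13.6 protein-coding genes per Mb of that span, against a median of 7.90, and 1 other autosome had more. RefSeq lists 2030 protein-coding genes for chromosome 7 in its table of GRCm38.p6, which gave 16.9 peaks per 100 genes (95% Poisson interval 15.2 to 18.8). The other autosomes had a median of 25.7 and a range from 18.0 on chromosome 14 to 31.3 on chromosome 15. The intervals of chromosomes 7 and 14 overlap.

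Receptor genes were a large share of the genes on this chromosome. The table listed 239 Olfr, 126 Vmn1r and 52 Vmn2r genes there, together 417 or 20.5% of its protein-coding genes, against 5.59% on the other autosomes. Chromosome 7 held 54.5% of all autosomal Vmn1r genes, 42.3% of Vmn2r genes and 21.6% of Olfr genes. The next largest number of Olfr and Vmn genes was 287, on chromosome 2.

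Leaving these receptors out raised the chromosome 7 value but did not bring it to that of most other autosomes. With Olfr and Vmn genes left out of the count on each chromosome, chromosome 7 had 21.3 peaks per 100 genes (19.1 to 23.6) and was the second lowest, above chromosome 14 with 18.9 (16.0 to 22.1), whose interval overlaps with it. The median of the other autosomes became 27.0. The distance from chromosome 7 to that median was 8.79 peaks per 100 genes with all genes counted and 5.71 without the receptors. Chromosome 2, the next richest in receptor genes, went from 22.1 to 26.4 in the same count.

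**Figure D1:**
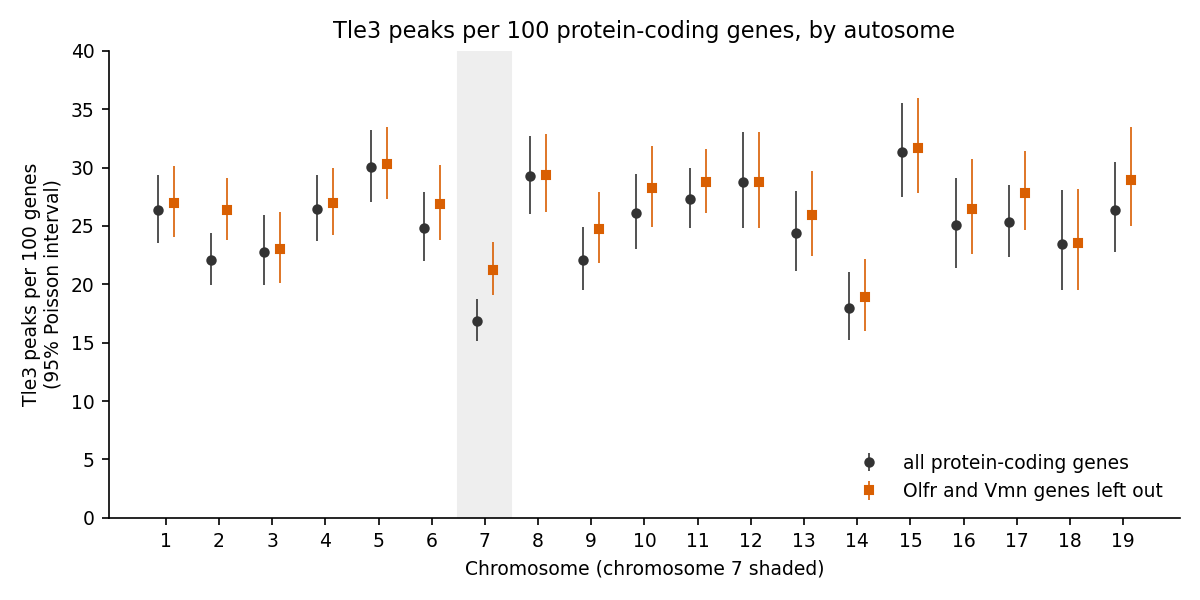
Tle3 peaks per 100 protein-coding genes (vertical axis) on each of the 19 autosomes (horizontal axis), with all genes counted (circles) and with Olfr and Vmn genes left out (squares); bars are 95% Poisson intervals. Chromosome 7, shaded, went from 16.9, the lowest value, to 21.3, above the 18.9 of chromosome 14.

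Other tandem families also filled chromosome 7. It held 36 of 40 autosomal secretoglobin genes (Scgb, small secreted proteins), 26 of 27 kallikrein genes (Klk, serine proteases), 19 of 20 Mrgpr genes (receptors of sensory neurons), all 15 Ceacam and all 13 Psg genes (adhesion molecules and pregnancy-specific glycoproteins), and 93 of 388 Zfp genes (zinc finger proteins). When the wider list of such families was left out along with the receptors, chromosome 7 had 23.7 peaks per 100 genes and took rank 4 from the bottom. When zinc finger genes and predicted symbols were left out too, 1241 genes remained. The value was then 27.6 (24.8 to 30.7), rank 5 from the bottom, against a median of 31.1 on the other autosomes. The distance to the median was 3.45 peaks per 100 genes in that count. The wider families had 165 genes on chromosome 7 and at most 56 on any other autosome. Leaving them out therefore had to raise the chromosome 7 value by the largest factor. The chromosome was also selected on its peaks per gene, so these ranks are descriptions and no test. With receptors and predicted symbols left out, but not the other families, chromosome 7 was lowest at 22.9.

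To see where the receptor arrays lie among the peaks, the gene table had to be set against a list from another build. The chromosome was split into 7 blocks of 49 consecutive peaks. For each block the offset within 10 Mb was found at which most peak midpoints fell within 1 kb of either end of a protein-coding gene. The best offsets were 585.5 and 785 kb in the first 2 blocks and between 7143 and 7256 kb in the other 5. In block 5, 28 of 49 peaks matched at the best offset, 4 at offset 0 and 14 at the best offset more than 50 kb away from it. Block 7 was the least clear, with 14 matches against 13. The list and the table therefore did not share positions on this chromosome even at a scale of several megabases.

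**Figure D2:**
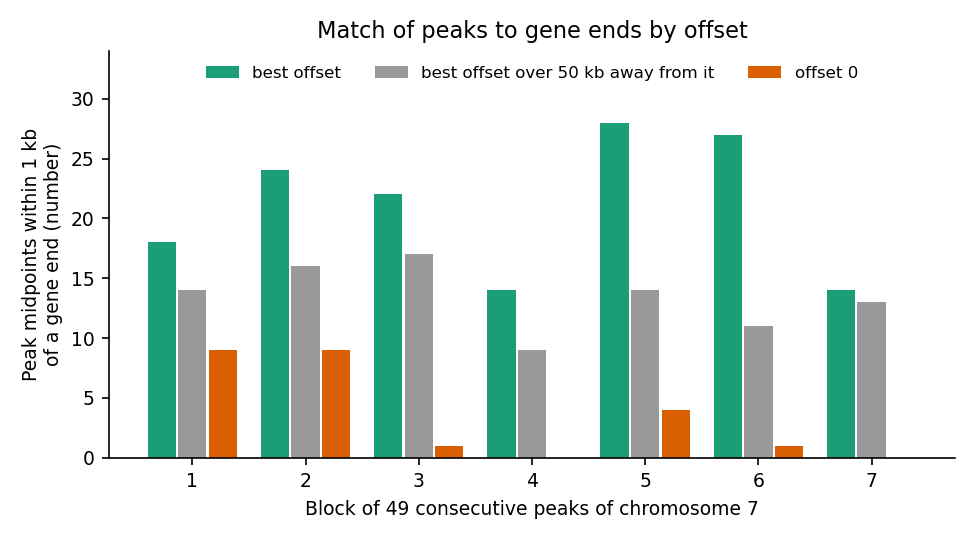
Number of peak midpoints within 1 kb of a protein-coding gene end (vertical axis) in each of 7 blocks of 49 consecutive peaks (horizontal axis), at the best offset, at the best offset over 50 kb away from it, and at offset 0. The best offset matched 14 to 28 peaks per block and offset 0 matched 0 to 9.

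Letting the offset change where this gave most matches put 160 of the 343 peaks (46.6%, exact interval 41.3 to 52.1%) within 1 kb of a gene end, against 24 at offset 0. The offsets were chosen for this number, so it is no test of binding at gene ends. The same step on the other 18 autosomes matched between 27.7% and 49.0% of peaks, with no offset above 2525 kb. Peaks at a gene end had a median score of 67.9 and the other 183 a median of 72.0. The score is the authors' MACS value for each peak, which starts at 50 in this list and rises with the evidence against the local background. Scores of 100 or more were found in 27.5% (20.7 to 35.1%) of the former and 26.8% (20.5 to 33.8%) of the latter, and these intervals overlap. Placement was used at megabase scale, and no single peak was assigned to a gene. No peak from 3275783 to 7251571 matched a gene end at the offset used there, 585.5 kb. Which genes lie between these first peaks is therefore not established.

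As placed, no receptor gene of chromosome 7 had a Tle3 peak at either end. Of 2025 genes that could be placed, 182 (8.99%) had a peak within 1 kb of an end. Among the 415 placed Olfr and Vmn genes the number was 0, which allows a share of up to 0.723% (3 counts of the total; the exact upper limit is 0.885%). Among the other 1610 genes it was 182, or 11.3% (9.80 to 13.0%). Zinc finger genes were near that share, with 11 of 93 (11.8%, 6.05 to 20.2%). In the wider tandem families 1 of 165 genes had a peak at an end (0.606%, 0.0153 to 3.33%), a Ceacam gene. Of the predicted symbols 3 of 114 had one (2.63%, 0.546 to 7.50%). Genes of one array share their position and are not independent, so these intervals are too narrow. The offsets were chosen to maximise matches over all gene ends, receptors included. As placed, 6 and 14 of the receptor genes lay in the stretches at chr7:5032076-6107243 and chr7:6124016-7230448. No peak from 3275783 to 7251571 matched a gene end, so for these genes the 0 was fixed by the placement.

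Receptor genes lay almost wholly in long empty stretches. Between neighbouring peaks there were 342 stretches with a median length of 83.6 kb, and 39 of them were at least 1 Mb long. Over all placed genes, 50.8% lay in these 39 stretches. Of the Olfr and Vmn genes 389 of 415 did (93.7%, 91.0 to 95.9%), against 640 of 1610 other genes (39.8%, 37.4 to 42.2%). The 389 lay in only 11 of the 39 stretches. Genes of one array share a stretch and are not independent, so these intervals are too narrow. The share was 100% for the 52 Vmn2r genes, 96.0% for the Vmn1r genes and 91.2% for the Olfr genes. The 389 include the 6 and 14 receptor genes of the stretches at chr7:5032076-6107243 and chr7:6124016-7230448, where the placement is not established. With the table used at offset 0 the order turned, to 67.0% of receptor genes and 74.8% of other genes. The 26 receptor genes outside long stretches were 21 Olfr genes, in stretches of 323 and 872 kb, and 5 Vmn1r genes (Vmn1r85 to Vmn1r89) in a stretch of 240 kb.

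**Figure D3:**
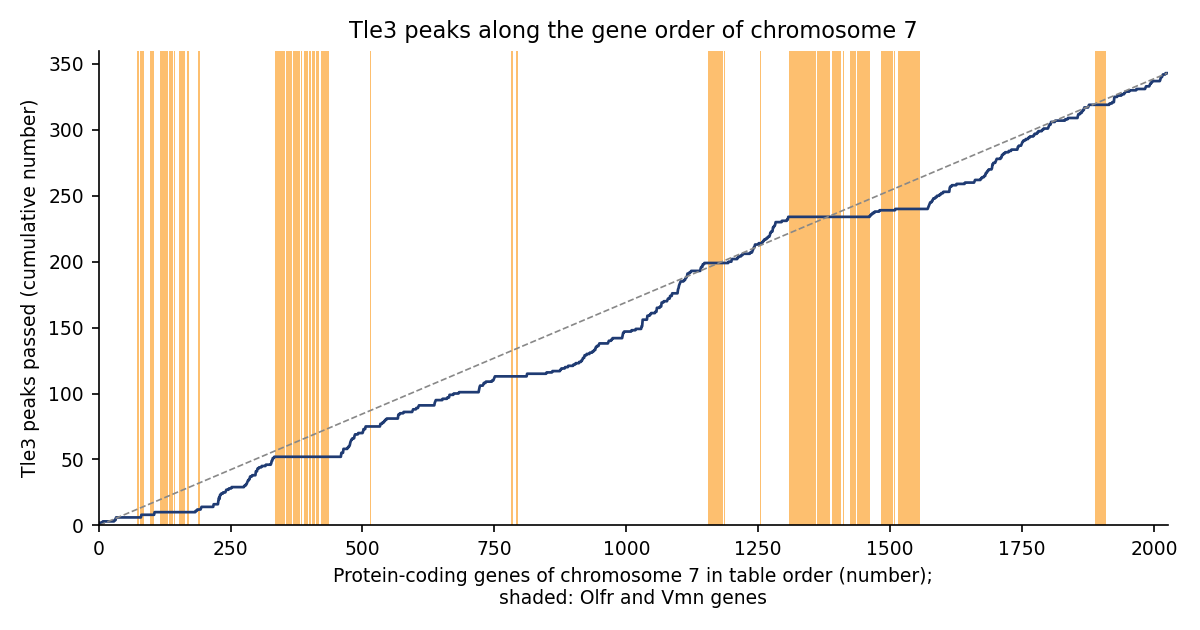
Cumulative number of Tle3 peaks (vertical axis) against the 2025 placed protein-coding genes of chromosome 7 in table order (horizontal axis), with each Olfr or Vmn gene shaded; the dashed line joins the first and last points. The curve is flat across the wide shaded arrays, where as placed 0 of 415 receptor genes had a peak at an end, and also across some unshaded genes. Up to 7251571 in the list no peak matched a gene end, and the placement is not established.

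On the other autosomes 78.7% of 1039 Olfr and Vmn genes and 35.9% of 17496 other genes lay in stretches of at least 1 Mb. Chromosomes 2 and 9 had all of their 287 and 130 receptor genes there. On chromosome 10, 0 of 76 did. The share of other genes in long stretches ranged from 18.9% to 59.2% across the 18 chromosomes, and 39.8% on chromosome 7 lay inside this range. Whether these shares differ between chromosomes was not tested.

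The receptor arrays themselves were almost free of peaks. In table order, with up to 2 other genes allowed between neighbours, 383 of the 415 receptor genes formed 13 runs of at least 10, which covered 15.3 Mb. As placed, only the first run, 11 Vmn1r genes and 1 Vmn2r gene between Rasl2-9 and Nlrp4c, had peaks inside. There were 2 of them, at 6107244 to 6107720 with a score of 52.9 and at 6123358 to 6124015 with a score of 61.9, both below the chromosome's median. Neither these nor any other peak from 3275783 to 7251571 matched a gene end at the 585.5 kb offset used there. Whether the peaks lie inside the run is therefore not established. The longest run by gene number was 73 Olfr genes, which began just after Rrm1, the gene of the large ribonucleotide reductase subunit. Next came 70 Vmn1r genes after Nlrp9b, a run of 3151 kb with 14 other genes between its members. A run of 42 Olfr genes lay between Ovch2 and Nlrp10, and a mixed run of 17 Olfr and 15 Vmn2r genes lay between Zfand6 and Nox4. Each of these 4 runs lay within a single stretch without a peak.

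The 10 longest empty stretches divided evenly between those with receptor genes and those without. Together they took up 53.1 Mb and held 299 receptor genes, 72.0% of those placed. The second longest, at chr7:7251572-13609279, held 28 Vmn2r and 19 Vmn1r genes. As placed, it also held 11 Zfp genes and, at its left edge, the imprinted genes Zim1, Peg3 and Usp29. Of these, Peg3 encodes a zinc finger protein expressed from the paternal copy. No peak from 3275783 to 7251571 matched a gene end, so which genes stand at this edge, the imprinted ones included, is not established. The stretch at chr7:20535296-25156778 held 86 Vmn1r genes among 127. Its 41 other genes included 11 zinc finger genes and Xrcc1, a scaffold of DNA single-strand break repair. Xrcc1 was the last gene in it by midpoint. Of the 3 peaks that bound the stretch there, at chr7:25156779-25159541, 2 lay at a gene end, so Xrcc1 may not be free of a peak.

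The stretch at chr7:109416271-112521322 was the densest in genes of the 10 longest. It held 155 genes in 3.11 Mb, of which 126 were Olfr genes, and the others included the Trim5 and Trim30 relatives of antiviral defence. The stretch at chr7:91033262-96552192 held 17 Olfr and 15 Vmn2r genes along with Tyr, the pigment enzyme tyrosinase, Grm5, a glutamate receptor, and Fah, an enzyme of tyrosine breakdown. The peaks on either side of these 4 stretches scored between 52.2 and 167.

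The longest stretch, at chr7:39000181-50801149, was 11.8 Mb long in the list. Across it the offset rose by 6.47 Mb, so that only 5.33 Mb of the gene table lay between its flanking peaks. It held 61 placed genes, of which 8 were Vmn2r genes, 9 Zfp genes and 29 predicted symbols. Genes with known roles in it included Siglecf, Siglecg and Cd33, sialic acid-binding lectins of blood cells, and Nkg7, a granule protein of killer lymphocytes. Cd33 was the last gene in it by midpoint. The peak that bounds the stretch there, at chr7:50801150-50802040, lay at no gene end. The next, at chr7:50817407-50818161 with a score of 147, did, so Cd33 may not be free of a peak. What the sequence without counterpart in the table consists of was not examined.

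The other 5 of the 10 held no receptor gene and few genes of any kind. The stretch at chr7:57034293-63039675 held 14 genes, among them Slc17a6, a vesicular glutamate transporter, Slc6a5, a glycine transporter, and Nell1. The one at chr7:66114735-71041580 held 11 genes of the Prader-Willi and Angelman domain and its surroundings, among them Snrpn, Ndn, Magel2, Mkrn3 and Ube3a, most of which are imprinted, and Chrna7, a nicotinic receptor subunit. A stretch of 4.21 Mb at chr7:100024044-104230350 held 5 genes, among them Tenm4, a large neuronal cell-surface protein. A stretch of 3.29 Mb held Nr2f2, a nuclear receptor of vessel and organ development, and Igf1r, the receptor of insulin-like growth factor 1. Igf1r was the first gene in it by midpoint. The peak before it, at chr7:75095506-75097339 with a score of 257, lay at a gene end, so Igf1r may not be free of a peak. A stretch of 3.25 Mb held Ntrk3, a neurotrophin receptor. Genes were put in a stretch by their midpoints, and the genes named from these stretches were picked for their known roles after the stretches had been seen.

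**Figure D4:**
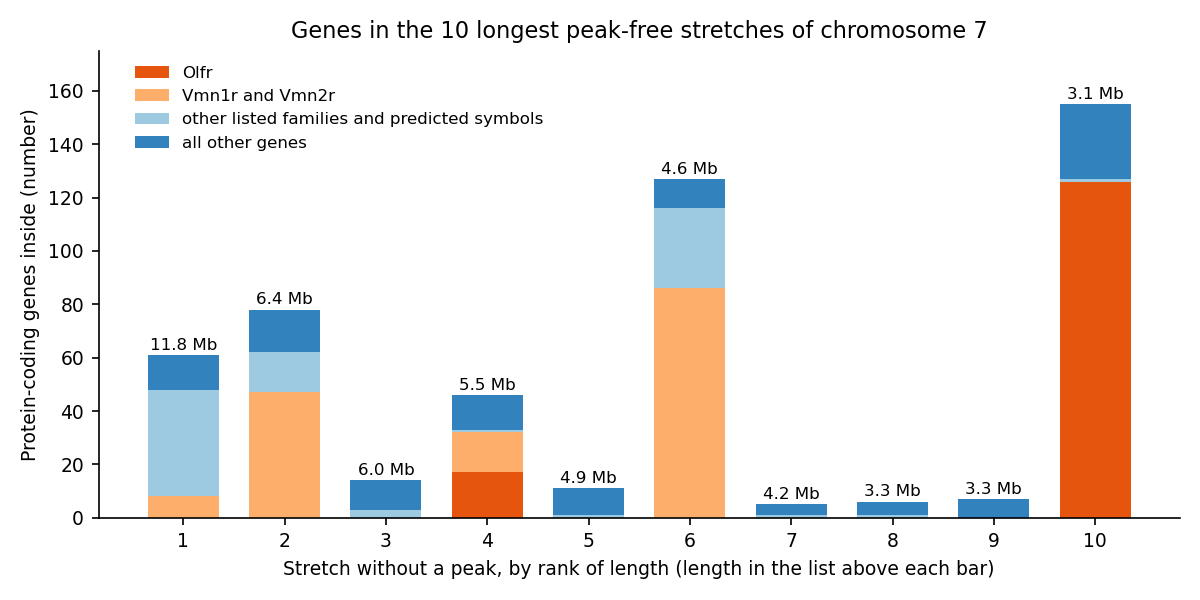
Number of protein-coding genes (vertical axis) in each of the 10 longest stretches of chromosome 7 without a Tle3 peak, in order of length (horizontal axis, length in Mb above each bar), by gene group. The tenth stretch held 126 Olfr genes and the sixth 86 Vmn1r genes, while stretches 3, 5, 7, 8 and 9 held no receptor gene and at most 14 genes.

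Most of the empty length lay in stretches without any receptor gene. The 39 long stretches covered 106 Mb, or 70.9% of the 149 Mb between the first and last peak. Stretches with at least 10 receptor genes numbered 7 and took up 24.8 Mb, or 23.4% of that length, and held 151 other genes. The 28 stretches without a receptor gene took up 63.8 Mb (60.4%) and held 346 genes, or 5.41 per Mb. In the remaining 303 short stretches the density of genes other than receptors was 22.4 per Mb. Relative to the 970 other genes outside long stretches, chromosome 7 had 35.4 peaks per 100 genes and was the second lowest, against a median of 44.0 and a range of 34.8 to 63.5. One of the long stretches without receptors, at chr7:31937069-34980852, held 35 of the 36 Scgb genes. The long stretch at chr7:13888737-16534331, with 1 Vmn1r gene, held all 8 Sult2a genes (liver sulfotransferases) and all 6 Obox genes (oocyte homeobox proteins). The 26 Klk genes lay outside long stretches, and 0 of them had a peak at an end, which allows a share of up to 11.5% (3 counts of the total; the exact upper limit is 13.2%).

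The changes of offset divided the chromosome into 7 segments. With all genes counted, the 2 segments richest in receptor genes had the fewest peaks per 100 genes, 12.5 in the first and 13.6 in the fifth, against 17.5 to 40.7 in the other 5. The values that follow leave the receptors out. From 25669076 to 39000180 there were 55 peaks and 279 genes, of which 2 were receptors, and the value was 19.9 peaks per 100 other genes (15.0 to 25.8). From 50801150 to 57034292 there were 34 peaks and 184 genes, none a receptor, and the value was 18.5 (12.8 to 25.8). The first segment, up to 25248088, held 159 receptor genes and had 19.1 (14.5 to 24.7) with the receptors left out. It includes the peaks up to 7251571, whose placement is not established. Its gene counts, and the 12.5 given above, are therefore less sure. The segment from 90014348 to 112959874 held 160 receptor genes and had 25.7 (18.8 to 34.3). The next, up to 146342965, held 42 and had 24.4 (19.2 to 30.5).

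The highest value, 40.7 (29.8 to 54.3), came from the gene-poor segment between 63039676 and 88358977, with 46 peaks and 113 genes, none a receptor. Its interval did not overlap those of the first 3 segments or of the last, from 146398703 to 152298145 (20.0, 13.2 to 29.1). When only genes outside every listed family were counted, the other 6 segments had between 24.3 and 29.6 peaks per 100 genes. The gene-poor segment had 43.0 in that count. Genes in the stretches between segments were not counted.

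In score and width the chromosome 7 peaks were close to those elsewhere. Their median score was 69.2 (quartiles 56.7 and 106), against 68.8 (56.8 and 98.8) for the 4753 peaks of the other autosomes, and their median width was 680 bp against 656 bp. In the whole list 24.5% of peaks scored at least 100. On chromosome 7, 93 did (27.1%, 22.5 to 32.1%), against 24.3% (23.1 to 25.6%) on the other autosomes. On chromosome 7, 14 peaks (4.08%) scored at least 200, against 4.40% of the whole list, and 41 (12.0%) were wider than 1000 bp, against 11.1%. Both shares were near those of the whole list.

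The strongest peak, at chr7:19661251-19663850, scored 1042 and was also the widest at 2600 bp. It was followed by the peaks at chr7:19901597-19902370 with a score of 582 and at chr7:86610361-86611595 with 494. The other 7 of the 10 highest scored between 257 and 311 and lay at chr7:71082188-71084379, chr7:53177994-53178924, chr7:151632786-151633687, chr7:29166772-29168743, chr7:31596795-31597873, chr7:87923886-87924813 and chr7:75095506-75097339. The next score below them was 229. The first, the fourth, the seventh and the tenth of these were also the 4 widest peaks, with the second of them in width at 2192 bp. The fifth in width was the peak at chr7:109397700-109399473, with 1774 bp and a score of 191. The peak at 75095506 stood at the edge of an empty stretch of 3.29 Mb. Of the 10 highest, 4 lay within 1 kb of a placed gene end.

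Most peaks of chromosome 7 lay in a minority of its 1 Mb tiles. Of 1 Mb tiles over all chromosomes, X included, 44.2% had no peak, and on chromosome 7 this held for 65 of 150 tiles (43.3%, 35.3 to 51.7%). On the other autosomes the share was 41.35% (39.3 to 43.4%), and 8 of them had a higher share than chromosome 7. The 27 tiles with at least 5 peaks held 229 peaks, or 66.8% of the chromosome's total. This share was not computed for other chromosomes, so it does not set chromosome 7 apart. The fullest, from 52000001 to 53000000, held 16 peaks with a median score of 65.6, and 9 of them lay at a gene end. The tiles from 19000001 to 20000000 and from 87000001 to 88000000 held 15 each, and those from 25000001 to 26000000 and from 134000001 to 135000000 held 14 each. In the last of these, 11 of the 14 lay at a gene end.

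Close neighbours were found for 91 of the 343 peaks. In the whole list 22.2% of peaks had another within 10 kb, and on chromosome 7 the share was 26.5% (21.9 to 31.5%), against 22.0% (20.8 to 23.2%) on the other autosomes. These intervals overlap. Chaining such peaks gave 30 pairs, 9 groups of 3 and 1 group of 4. The group of 4, at chr7:16825030-16843744, had scores between 52.8 and 121.

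The groups of 3 began at 19850993, 25156779, 26465758, 29165603, 31197722, 34999400, 71143589, 87169860 and 148183656. The tightest, at chr7:25156779-25159541, took up 2.76 kb and stood at the edge of the empty stretch with 86 Vmn1r genes. Its 3 peaks scored 64.6, 56.0 and 59.2. The strongest member of any group was the peak scoring 265 in the group at chr7:29165603-29171268. The group at chr7:31197722-31207004 had all 3 peaks at gene ends, with scores of 51.4, 54.2 and 67.7.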

How the data were processed

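The deposited file is 1 list of peaks, made with Bowtie2 and MACS 1.4 on mm9 per the submitters' processing notes, which name no parameters. Column 5 holds the score, which the authors deposited as MACS gave it; it served to rank and filter peaks. Starts were converted to positions counted from 1. Gene names and families came from the GRCm38.p6 table of RefSeq. Of its chromosome 7 genes, 5 listed under position 3000000 were counted but not placed. The offset of the table was searched in steps of 500 bp and allowed to change at a cost of 2 matches per change, with the order kept, a step added after the data were seen. On 10 simulated chromosome 7 lists with 40% of peaks at gene ends it put 100% of peaks at the true offset. On 10 lists with no peak set at gene ends it still matched 11.7 to 16.9% of peaks. The simulated lists had fewer changes of offset than were read here, and no short region with its own offset. They therefore cannot show that such a region, as at the start of the chromosome, was placed rightly. Named by rule were the 10 highest scoring and 5 widest peaks, the 10 longest stretches, the 5 fullest tiles, chains of 3 or more peaks, and the genes flanking runs of at least 10 receptor genes. The members and lists were chosen with earlier results of these data known. Intervals are exact (95%, Clopper-Pearson or Poisson). No sequence is printed, since no mm9 genome was used. Python 3.11.15, numpy 2.4.6, pandas 2.3.3 and SciPy 1.17.1 were used.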

Additional observations from a re-analysis of the deposited data

How the results depend on the processing

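Of 31 alternatives, 12 stayed within the interval of the reported value. A score of at least 100 gave 4.58 peaks per 100 genes, rank 2 from the bottom, and 5.77 without receptor genes, rank 4. Without receptors, leaving out the wider families gave 23.7, all listed families and predicted symbols 27.6, and LOC symbols too 27.7; the last 2 were added after the data were seen. Empty tiles made up 25.0% at 2 Mb, 61.2% at 0.5 Mb and 64.3% for peaks scoring 100 or more. The share of receptor genes in empty stretches was 98.3% for stretches of at least 0.5 Mb and 82.4% for at least 2 Mb, against 54.8% and 22.0% of other genes. At a score of at least 100 the shares were 82.7% and 62.4%. At offset 0 they were 67.0% and 74.8%, the one setting in which receptor genes had the lower share; with the table unmoved only 24 peaks lay at gene ends. Close neighbours made up 56.6% within 50 kb, 19.9% after merging within 1 kb and 8.60% at a score of at least 100. Blocks of 30 peaks and, added later, leaving out the longest stretch kept both gene shares within their intervals. A 5 kb window moved the median offset by 1 kb and put 236 peaks near gene ends, against 160. How much of the empty length consists of assembly gaps, or of repeated sequence on which reads cannot be placed, was not tested. Without read totals, weaker sites below a score of 50 cannot be counted. No paired analysis was possible because each antibody had 1 library.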
